A study of Homo sapiens with 9 samples.

Results

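The 41 genes described here act in G2 phase and mitosis. They were taken by symbol from a fixed list, which was chosen with earlier results of these data known. They make up 41 of the 58243 gene identifiers counted in each library. All 41 passed the filter on low counts and are among the 15163 genes tested. The cells were DOHH2, a long-established line from a human follicular lymphoma that had transformed, and bulk RNA-seq was made from 9 libraries in 3 groups of 3. The day 0 group was DOHH2 in culture. If the dates in the titles are those of sampling, the cultures sampled were not the source of every day 40 graft. The day 19 and day 40 groups were DOHH2 cells recovered 19 or 40 days after grafting from femurs of RAGγc mice, an immunodeficient strain that accepts human cells. Femur cells were released from bone with Liberase DH, Collagenase P and DNase I, passed through bead depletion, and sorted as human CD20-positive cells, and the labels describe no such steps for the cultured cells, so handling cannot be told apart from growth site in any comparison with day 0. All groups are the same line, for which the labels name no modification, and the labels do not say how mice were pooled, how old they were or which cultures the libraries came from.

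Cells that have copied their DNA enter mitosis when CDK1, bound to cyclin A or cyclin B, is freed of inhibitory phosphates by CDC25 phosphatases. Centrosome kinases and motor proteins then build the spindle, the checkpoint kinases hold cells until every kinetochore is attached, and the anaphase-promoting complex (APC/C) with CDC20 destroys securin and cyclin B so that chromosomes part and the cell divides. Transcripts of these genes build up in G2 in cycling cells, driven by MuvB complexes with MYBL2 and FOXM1, so they are widely read as markers of dividing cells, including germinal-centre B cells.

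Libraries held 21071239 to 29456271 counts, and each of the 41 genes had at least 230 counts in every library. All 10 B-cell markers were tested, while their summed level was 4980.3 to 6183 CPM (counts scaled to library size) in culture, 3293 to 3537 CPM at day 19 and 3747 to 4035 CPM at day 40. The share of mitochondrial genes was 5.57% ± 0.653 in cultured cells, 8.07% ± 0.566 in day 19 cells and 8.28% ± 0.389 in day 40 cells (SD, n = 3 each). A set of immediate early genes that respond to tissue dissociation summed to 106 ± 26.6 CPM in culture, 254 ± 53.3 CPM at day 19 and 361 ± 252 CPM at day 40. The sum of the stromal markers was 0.137 to 0.504 CPM in culture, 4.05 to 6.80 CPM at day 19 and 3.44 to 4.57 CPM at day 40, with COL1A2, COL3A1, LUM, CXCL12 and POSTN at 0 in every library. Erythroid markers summed to at most 0.164 CPM, with HBB and HBA2 at 0. The myeloid sum was 2.63 to 5.00 CPM in culture, 4.80 to 5.94 CPM at day 19 and 2.42 to 5.29 CPM at day 40, with S100A8 and S100A9 at 0. Sums of the T and NK cell markers (CD2 at 0) and of the endothelial markers (CDH5, KDR and EMCN at 0) were at most 3.90 and 7.60 CPM. The part of these measures in the results was not tested. Culture replicate 2 differed from the other cultures as a whole library, and among the 41 genes it was furthest below them for the longest. Values without it are therefore given beside the fold changes and calls that rest on it.

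Day 19 cells were set against day 0 cells to ask how cells from bone marrow differed from cells in culture. In day 19 femur cells 22 of the 41 genes were lower than in culture, 3 were higher and 16 did not pass the test (edgeR quasi-likelihood test, Benjamini-Hochberg adjusted p under 0.05). Over all 15163 genes tested 26.5% were called lower and 26.3% higher. Of the 41 genes 53.7% were called lower and 7.32% higher. The median log2 fold change of the 41 genes was -0.21, against 0.01 over all genes tested. At day 40 there were 20 genes lower and 4 higher than in culture, with a median of -0.18 against 0.01 over all genes, and 23.3% of all genes were called lower and 23.3% higher. In bulk RNA, fewer cells in G2 or mitosis and less of these transcripts in each such cell cannot be told apart.

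The differences were small. Only HMMR, CKS2, CDK1 and AURKA were called lower by at least 1.5-fold at day 19, which is 9.76% of the 41 genes against 11.9% of all genes tested, and only CDC25B was called higher by that much, 2.44% against 16.5%. At day 40 the genes past 1.5-fold were HMMR and CKS2, which were lower, and CDC25B, which was higher. These are 4.88% and 2.44% of the 41 genes, against 8.04% and 14.4% of all genes tested. All 20 genes lower at day 40 were also lower at day 19, and PTTG1 and ECT2 were called lower at day 19 only. For PTTG1 and ECT2 the change between day 19 and day 40 did not itself pass the test (adjusted p = 0.271 and 0.570). For the mean of both femur days against culture 22 genes were lower and 4 higher, against 28.2% and 27.8% of all genes. The 3 genes higher at day 19, CDC25B, FOXM1 and PRC1, were also higher at day 40, joined by ASPM. All comparisons with day 0 share the culture libraries, so they are not independent of each other.

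The femur libraries lay entirely below the culture libraries for 24 genes at day 19 and for 24 at day 40, as did 31% and 27.4% of all genes tested. They lay entirely above them for 5 and 4 genes, against 30.6% and 27.4% of all genes. Within each of the 3 sampling periods that the dates in the titles define, all 22 genes called lower at day 19 were below the culture library of the same period, and the 3 called higher were above it. At day 40 the 20 genes called lower were below that library in each period, and of the 4 called higher all but FOXM1 were above it. The first 2 day 40 libraries are dated 11 and 26 days after the culture library of their period. If these are sampling dates, that culture cannot be the one grafted. With total library size in place of TMM scaling the split was 16 lower and 7 higher at day 19, and 13 lower and 5 higher at day 40. That scaling moved the median of all genes to 0.10 at both days. It called 21.2% of all genes lower and 30.7% higher at day 19, and 17.5% and 27.4% at day 40.

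**Figure D1:**
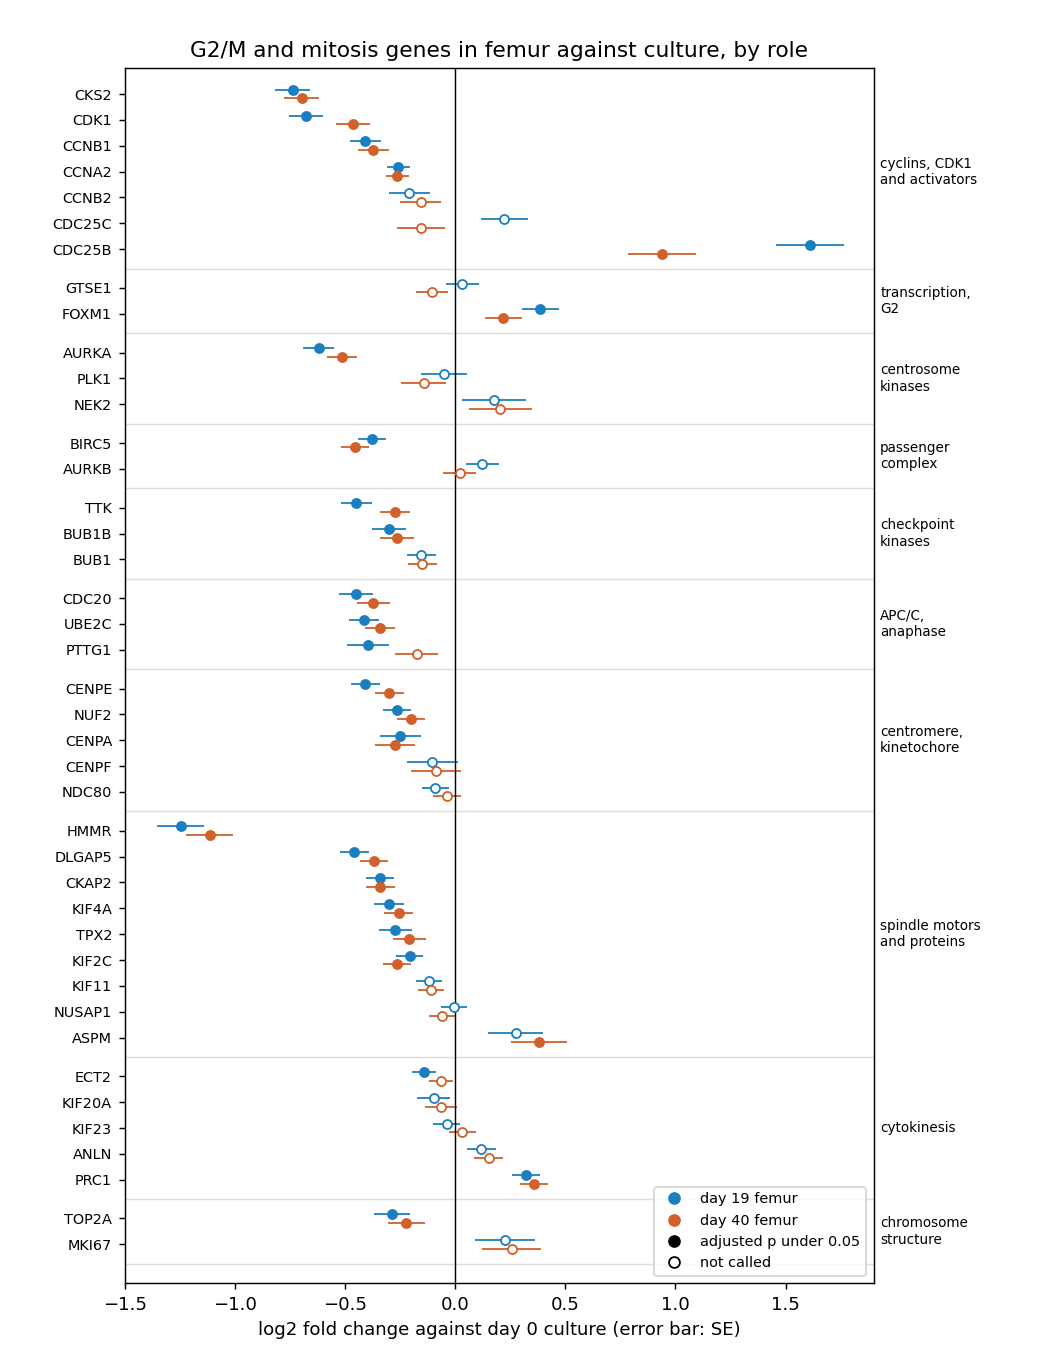
Log2 fold change of each of the 41 genes against day 0 culture at day 19 (blue) and day 40 (orange), with bars of 1 SE, grouped by role; filled points passed an adjusted p under 0.05. Most filled points lie to the left of 0 and within 0.5 of it, while HMMR at -1.25 and CDC25B at 1.61 lie farthest out.

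The promoters of the genes that moved most are shown because cell-cycle transcription in G2 is read out through short promoter elements. RefSeq promoter entries on GRCh38.p14 were found for 35 of the 41 genes. Each entry spans 250 bases before to 50 bases after the annotated start. Every entry was searched on both strands for the cell cycle genes homology region (CHR, TTTGAA), which MuvB complexes bind, for the CCAAT box (CCAAT), which NF-Y binds, and for an E2F site (GCGGGAA). Below, bases from 200 before to 30 after the start are printed 5′ to 3′ on the strand of the gene, with matches to any of the 3 motifs in capitals, where a match on the opposite strand appears as the reverse complement of the motif. The genes are the 3 with the most negative and the 2 with the most positive log2 fold change at day 19 among called genes with an entry. HMMR lies at chr5:163460432-163460661 on the plus strand, CKS2 at chr9:89310995-89311224 on the plus strand, CDK1 at chr10:60778131-60778360 on the plus strand, CDC25B at chr20:3786751-3786980 on the plus strand and PRC1 at chr15:90994506-90994735 on the minus strand.
HMMR: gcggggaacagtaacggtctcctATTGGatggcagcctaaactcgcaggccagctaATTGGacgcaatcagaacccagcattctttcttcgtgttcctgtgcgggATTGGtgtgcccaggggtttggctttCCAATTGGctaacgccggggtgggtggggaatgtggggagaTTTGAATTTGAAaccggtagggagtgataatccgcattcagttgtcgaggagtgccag
CKS2: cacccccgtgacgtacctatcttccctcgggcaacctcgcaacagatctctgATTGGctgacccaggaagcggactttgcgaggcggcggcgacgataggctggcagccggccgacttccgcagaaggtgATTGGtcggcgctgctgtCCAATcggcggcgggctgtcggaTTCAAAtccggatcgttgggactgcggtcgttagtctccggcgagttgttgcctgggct
CDK1: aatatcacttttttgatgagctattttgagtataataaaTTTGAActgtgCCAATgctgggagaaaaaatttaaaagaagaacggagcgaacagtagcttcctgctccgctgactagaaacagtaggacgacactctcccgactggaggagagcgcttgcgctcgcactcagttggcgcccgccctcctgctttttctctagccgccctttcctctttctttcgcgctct
CDC25B: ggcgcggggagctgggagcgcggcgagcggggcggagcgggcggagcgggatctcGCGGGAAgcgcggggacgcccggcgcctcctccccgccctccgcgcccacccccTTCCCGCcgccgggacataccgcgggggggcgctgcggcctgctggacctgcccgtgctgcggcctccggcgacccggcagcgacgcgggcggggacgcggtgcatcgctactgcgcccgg
PRC1: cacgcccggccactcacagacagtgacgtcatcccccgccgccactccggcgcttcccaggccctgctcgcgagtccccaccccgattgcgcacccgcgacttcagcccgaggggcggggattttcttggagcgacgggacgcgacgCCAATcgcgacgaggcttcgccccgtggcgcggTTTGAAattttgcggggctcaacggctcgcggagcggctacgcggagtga

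In the HMMR sequence 2 CHR matches stand next to each other, 28 to 17 bases before the start, and 5 CCAAT matches lie upstream, 2 of which overlap each other. The CKS2 and PRC1 sequences hold 1 CHR match each, starting 29 and 20 bases before the start, with CCAAT matches upstream of it. In CDK1 the CHR and CCAAT matches lie farther out, from 161 bases before the start. CDC25B, the gene with the largest rise, has neither of these motifs in the window and has 2 E2F matches.

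Across the 35 entries the CHR was found in 23 (65.7%), against 15.4% of the 27305 promoter entries of the same length. The CCAAT box was found in 26 (74.3%) against 35.7%, both motifs in 19 (54.3%) against 6.08%, and the E2F site in 3 (8.57%) against 6.56%. The CHR was present in 11 of the 17 entries of genes lower at day 19, in 11 of the 16 of genes that did not pass the test, and in 1 of the 2 of genes that were higher, and the difference between these shares was not tested. A match is a description of letters, not evidence that a factor binds there.

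Among the cyclins, CDK1 and its activators, 4 of 7 genes were lower (57.1%) and 1 was higher (14.3%) at both femur days. Of all genes tested 26.5% were lower and 26.3% higher at day 19, and 23.3% each at day 40. CDK1, the kinase that drives entry into mitosis (chr10:60778331-60794852), had 190.1, 232 and 216 CPM in the 3 culture libraries, 139, 136 and 125 CPM at day 19, and 160.0, 149 and 154 CPM at day 40. Every femur library lay below every culture library, and the day 40 libraries lay above those of day 19. The log2 fold change of CDK1 was -0.68 at day 19 (SE 0.08, adjusted p = 1.69e-05) and -0.46 at day 40 (SE 0.08, adjusted p = 4.57e-04).

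CKS2, a small subunit that binds CDK1 (chr9:89311198-89316703), had 171, 206 and 177 CPM in culture, 107, 107 and 118 CPM at day 19, and 119, 108 and 114 CPM at day 40. The femur days overlapped each other and lay wholly below culture. Its log2 fold change was -0.74 at day 19 (SE 0.08, adjusted p = 9.50e-06) and -0.70 at day 40 (SE 0.08, adjusted p = 2.33e-05). Per kilobase of exon CKS2 had the highest level of the 41 genes, 301 CPM per kb in culture, 181 at day 19 and 186 at day 40. Its close relative CKS1B, counted separately, also fell, with log2 fold changes of -0.28 at both days (adjusted p = 0.0213 and 0.0256), and how reads that fit both genes were assigned is not given in the sources used here.

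The cyclins had smaller log2 fold changes than CDK1 at both days, a difference that was not tested. CCNB1 (cyclin B1), the main CDK1 partner in mitosis, had 158 ± 8.15 CPM in culture, 119 ± 5.37 CPM at day 19 and 122 ± 8.09 CPM at day 40 (SD, n = 3 each), with log2 fold changes of -0.41 and -0.37 (adjusted p = 3.70e-04 and 9.59e-04). CCNA2 (cyclin A2), which acts in S phase and G2, had 188 ± 3.72 CPM in culture, 157 ± 0.545 CPM at day 19 and 156 ± 2.51 CPM at day 40, with log2 fold changes of -0.26 at both days (adjusted p = 0.00153 and 0.00172). Both sets of femur libraries lay below culture for CCNB1 and CCNA2. CCNA2 shares 254 exonic bases with EXOSC9 on the opposite strand, which did not pass the test (0.16 and 0.14, adjusted p = 0.0522 and 0.0992). CCNB2 (cyclin B2) had 96.8 ± 11.1 CPM in culture, 83.8 ± 7.43 CPM at day 19 and 86.8 ± 6.52 CPM at day 40, its groups overlapped, and it did not pass the test (adjusted p = 0.0767 and 0.181). CCNB2 was called lower at day 19 without day 19 replicate 2 or culture replicate 3 (adjusted p = 0.0412 and 0.0311), without a filter on low counts (0.0206) and with the sampling period as a block in the fit (0.0128).

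Of the phosphatases that activate CDK1, CDC25B was called higher at both femur days and CDC25C was not called. CDC25B (chr20:3786772-3806121), which starts CDK1 activation at the centrosome, had 87.1, 76.0 and 82.3 CPM in culture, 199, 257 and 294 CPM at day 19, and 121, 183 and 168 CPM at day 40. All 6 femur libraries lay above all 3 culture libraries, and all day 40 libraries lay below all day 19 libraries. The log2 fold change was 1.61 at day 19 (SE 0.16, adjusted p = 4.14e-06), a 3.06-fold difference, and 0.94 at day 40 (SE 0.15, adjusted p = 4.15e-04), a 1.92-fold difference. CDC25C, the phosphatase that acts at mitotic entry, was the lowest of the 41 genes per kilobase. It had 10.4 ± 0.225 CPM in culture, 12.1 ± 0.286 CPM at day 19 and 9.31 ± 0.793 CPM at day 40. Its log2 fold changes against culture were 0.22 and -0.15, and neither passed the test (adjusted p = 0.101 and 0.263). The groups did not overlap, with all day 19 libraries above culture and all day 40 libraries below it. CDC25C shares 293 exonic bases with FAM53C on the opposite strand, which had 19874 counts over all libraries against 2320 for CDC25C.

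FOXM1, the transcription factor that drives G2/M genes (chr12:2857681-2877155), had 151, 123 and 133 CPM in culture, 163, 184 and 185 CPM at day 19, and 147, 161 and 165 CPM at day 40. The day 19 libraries lay above culture, while day 40 replicate 1 lay below culture replicate 1. The log2 fold change was 0.39 at day 19 (SE 0.08, adjusted p = 0.00200) and 0.22 at day 40 (SE 0.08, adjusted p = 0.0473). The day 40 call was lost in 10 of 19 alternatives (adjusted p up to 0.160), the block on sampling period among them (0.0534). Leaving out replicate 2 or replicate 3 of any group was also among them. Without culture replicate 2 the day 40 log2 fold change was 0.14. FOXM1 shares 781 exonic bases with ITFG2 on the opposite strand, which also rose (0.48 and 0.29, adjusted p = 5.55e-04 and 0.0151), and without a stated strand setting their reads cannot be told apart there. GTSE1, a microtubule-bound G2 protein, had 103 ± 8.98 CPM in culture, 105 ± 5.03 CPM at day 19 and 95.6 ± 4.94 CPM at day 40 and did not pass the test (adjusted p = 0.739 and 0.266).

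**Figure D2:**
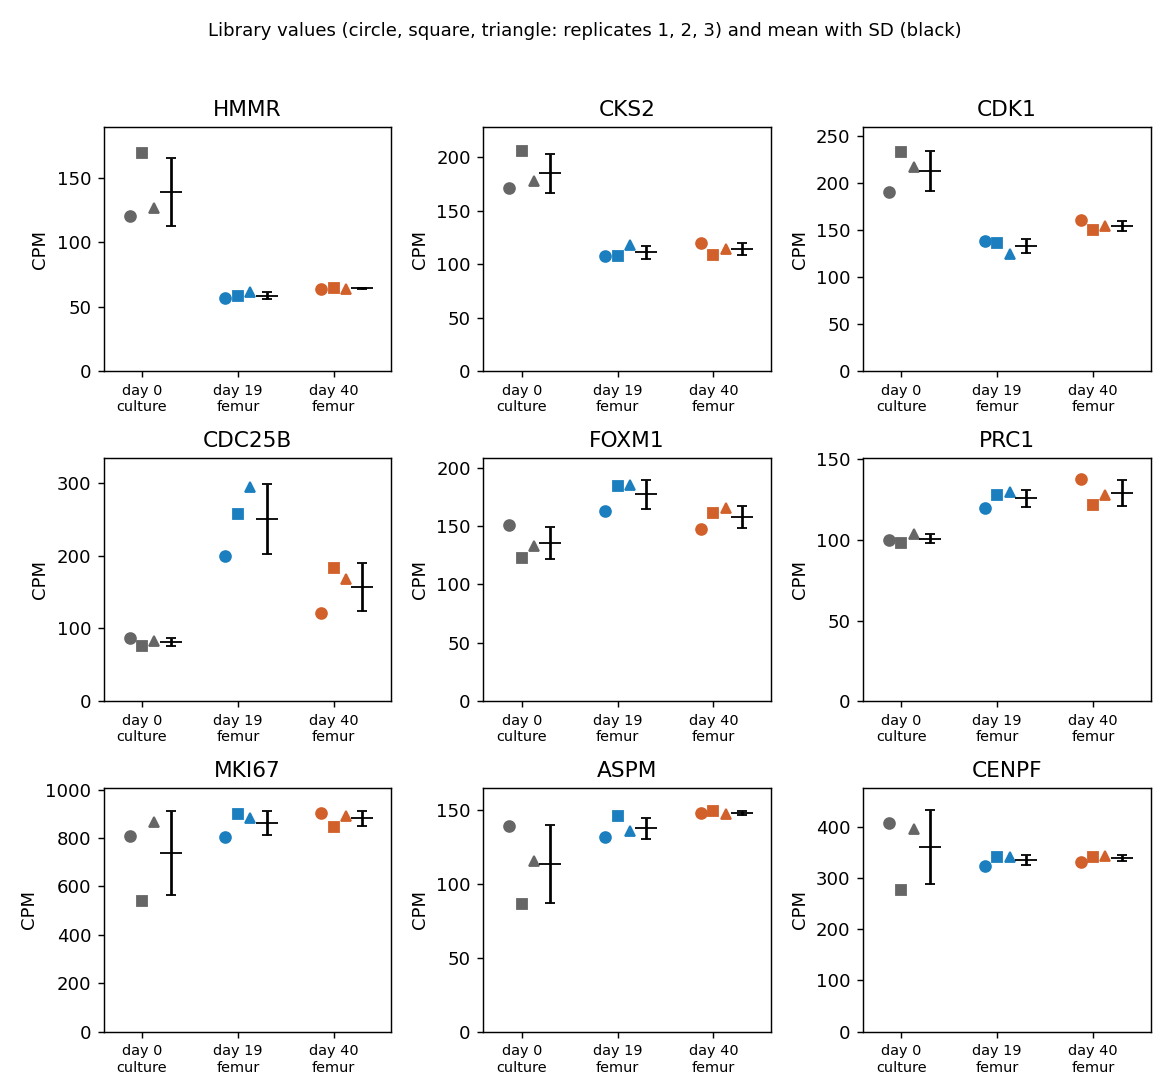
CPM in each of the 9 libraries for 9 of the genes (points; circle, square and triangle are replicates 1, 2 and 3) with the mean and SD of each group in black, each vertical axis starting at 0. HMMR, CKS2 and CDK1 are below culture in every femur library, CDC25B and PRC1 are above it, and culture replicate 2 is the low square for MKI67, ASPM and CENPF.

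Of the 3 centrosome kinases only AURKA was called, lower at both days (33.3%, against 26.5% and 23.3% of all genes). AURKA (Aurora A), which matures centrosomes and helps activate PLK1, had 76.2, 75.8 and 73.1 CPM in culture, 45.9, 49.5 and 51.1 CPM at day 19, and 56.3, 51.2 and 49.99 CPM at day 40. All femur libraries were below all culture libraries, with log2 fold changes of -0.62 (SE 0.07, adjusted p = 1.45e-05) and -0.51 (SE 0.07, adjusted p = 9.35e-05). PLK1 (Polo-like kinase 1) had 115 ± 6.10 CPM in culture, 111 ± 14.0 CPM at day 19 and 104 ± 13.6 CPM at day 40 (log2 fold changes -0.05 and -0.14, adjusted p = 0.698 and 0.276). NEK2, which splits the centrosomes, had 20.5 ± 2.87, 23.1 ± 3.56 and 23.6 ± 3.47 CPM in day 0, day 19 and day 40 libraries (0.18 and 0.20, adjusted p = 0.327 and 0.261). The groups overlapped for both kinases.

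The chromosomal passenger complex corrects faulty attachments, and its 2 listed genes differed from each other in their calls. BIRC5 (survivin), which places the complex on centromeres, had 166, 181 and 174 CPM in culture, 126, 141 and 133 CPM at day 19, and 123, 128 and 129 CPM at day 40, with no overlap with culture. Its log2 fold changes were -0.38 (SE 0.06, adjusted p = 3.11e-04) and -0.45 (SE 0.06, adjusted p = 1.14e-04). AURKB (Aurora B), the kinase of the same complex, had 115 ± 5.52 CPM in culture, 126 ± 11.5 CPM at day 19 and 117 ± 5.96 CPM at day 40, its groups overlapped, and it did not pass the test (0.12 and 0.02, adjusted p = 0.191 and 0.843).

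Among the checkpoint kinases TTK and BUB1B fell. TTK (MPS1), which recruits the checkpoint proteins to unattached kinetochores, had 64.5, 60.2 and 67.1 CPM in culture, 43.4, 47.7 and 49.5 CPM at day 19, and 53.8, 52.8 and 52.2 CPM at day 40. The 3 groups did not overlap at all, with day 40 between day 19 and culture, and the log2 fold changes were -0.45 and -0.27 (SE 0.07 each, adjusted p = 2.14e-04 and 0.00697). BUB1B (BubR1), part of the inhibitor of the APC/C, had 169.6 ± 19.1 CPM in culture, 138 ± 3.29 CPM at day 19 and 141 ± 4.13 CPM at day 40 (-0.30 and -0.26, adjusted p = 0.00635 and 0.0147). The day 40 call of BUB1B was lost without culture replicate 1 or day 40 replicate 3 (adjusted p = 0.0616 and 0.0589), and with total library size its calls were lost at day 19 (0.0727) and day 40 (0.127). BUB1, the kinetochore scaffold kinase, had 197 ± 3.59, 177 ± 13.1 and 178 ± 6.85 CPM in day 0, day 19 and day 40 libraries and did not pass the test at either day (-0.15 at both, adjusted p = 0.0666 and 0.0818).

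All 3 genes of the APC/C step were lower at day 19 and 2 (66.7%) at day 40, against 26.5% and 23.3% of all genes. CDC20, the activator of the APC/C that the checkpoint restrains, had 187, 185 and 201 CPM in culture, 126, 145 and 149 CPM at day 19, and 141, 157 and 146 CPM at day 40. UBE2C, the ubiquitin-conjugating enzyme of the APC/C, had 165, 162 and 155 CPM in culture, 109.6, 127 and 125 CPM at day 19, and 123, 133 and 125 CPM at day 40. Neither gene had a femur library within the range of culture. Their log2 fold changes were -0.45 and -0.41 at day 19 (adjusted p = 3.49e-04 and 3.23e-04) and -0.37 and -0.34 at day 40 (adjusted p = 0.00172 and 0.00166). PTTG1 (securin), which holds separase in check until anaphase, had 84.1 ± 10.4 CPM in culture, 63.9 ± 4.71 CPM at day 19 and 74.4 ± 6.51 CPM at day 40. It fell at day 19 (-0.40, adjusted p = 0.00442) and did not pass the test at day 40 (-0.18, adjusted p = 0.154), where it was called without culture replicate 3 (-0.28, adjusted p = 0.0291). Its near-identical copies PTTG2 and PTTG3P had 11 and 0 counts over all libraries.

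Of the centromere and kinetochore genes 3 of 5 (60%) were lower at both days, against 26.5% and 23.3% of all genes. CENPE, the kinesin that carries chromosomes to the spindle equator, had 131, 121 and 126 CPM in culture, 90.1, 99.6 and 95.9 CPM at day 19, and 109, 97.0 and 102 CPM at day 40, all femur libraries being below culture (-0.41 and -0.30, adjusted p = 2.77e-04 and 0.00291). NUF2, a subunit of the NDC80 complex that grips microtubules, had 71.5 ± 3.70 CPM in culture, 59.6 ± 2.62 CPM at day 19 and 62.2 ± 1.4 CPM at day 40 (-0.26 and -0.20, adjusted p = 0.00448 and 0.0216). The day 40 call of NUF2 was lost without day 40 replicate 3 (adjusted p = 0.0800), with an offset for gene length (0.0947) and with total library size (0.155). Its partner NDC80 had 61.4 ± 3.01, 57.7 ± 1.55 and 59.9 ± 1.28 CPM in day 0, day 19 and day 40 libraries and did not pass the test (-0.09 and -0.04, adjusted p = 0.243 and 0.649). So 2 proteins of one complex had different calls, though the difference between them was not tested.

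CENPA, the histone H3 variant that marks centromeres, had 35.9 ± 2.93 CPM in culture, 30.2 ± 2.96 CPM at day 19 and 29.6 ± 1.24 CPM at day 40 (-0.25 and -0.27, adjusted p = 0.0367 and 0.0263). Its day 19 and culture libraries overlapped, the calls of CENPA were lost in 8 of 19 alternatives at day 19 and 6 at day 40 (adjusted p up to 0.196 and 0.147), and it shares 138 exonic bases with SLC35F6 on the same strand. CENPF, a large kinetochore protein of G2 cells, did not pass the test with all libraries. Its values were 407, 277 and 396 CPM in culture, 324, 341 and 341 CPM at day 19, and 331, 342 and 344 CPM at day 40, so that culture replicate 2 lay below every femur library and the other cultures above every one. The log2 fold changes of CENPF were -0.10 and -0.09 (adjusted p = 0.471 and 0.557), and without culture replicate 2 they were -0.27 and -0.26 (adjusted p = 0.00108 and 0.00189).

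The spindle group held the gene with the largest fall. HMMR, a microtubule-binding protein of the spindle also known as a hyaluronan receptor (chr5:163460203-163491945), had 121, 169.8 and 127 CPM in culture, 56.4, 58.2 and 61.4 CPM at day 19, and 64.1, 64.8 and 64.1 CPM at day 40. The femur libraries spanned a narrow range, none came near the culture libraries, and culture replicate 2 was the highest. The log2 fold change was -1.25 at day 19 (SE 0.11, adjusted p = 1.48e-06) and -1.11 at day 40 (SE 0.11, adjusted p = 6.24e-06), or 0.422 and 0.462 of the culture level. Without culture replicate 2 the log2 fold changes of HMMR were -1.09 and -0.96.

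The other spindle genes that fell did so by less. DLGAP5 (HURP), which bundles kinetochore fibres, had 79.4 ± 3.25 CPM in culture, 57.9 ± 3.26 CPM at day 19 and 61.5 ± 1.24 CPM at day 40 (-0.46 and -0.37, adjusted p = 9.58e-05 and 6.34e-04). CKAP2, which promotes microtubule nucleation, had 149 ± 7.99 CPM in culture, 118 ± 6.01 CPM at day 19 and 118 ± 4.30 CPM at day 40 (-0.34 at both, adjusted p = 8.72e-04 and 0.00115). KIF4A, a motor bound to chromosome arms, had 79.2 ± 4.95 CPM in culture, 64.3 ± 2.03 CPM at day 19 and 66.3 ± 2.98 CPM at day 40 (-0.30 and -0.26, adjusted p = 0.00252 and 0.00767). For all 3 genes the femur libraries lay below culture. KIF4A shares 77 exonic bases with PDZD11 on the opposite strand, which also fell (-0.47 and -0.31), while its retrogene copy KIF4B had 25 counts over all libraries.

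TPX2, which activates Aurora A on the spindle, had 256 ± 16.6 CPM in culture, 212 ± 18.2 CPM at day 19 and 222 ± 7.86 CPM at day 40 (-0.27 and -0.21, adjusted p = 0.00918 and 0.0373). KIF2C (MCAK), which takes microtubules apart, had 119 ± 3.70 CPM in culture, 103 ± 6.43 CPM at day 19 and 98.9 ± 2.02 CPM at day 40 (-0.21 and -0.26, adjusted p = 0.0143 and 0.00427). Their femur libraries also lay below culture. The day 19 call of TPX2 was lost without day 19 replicate 1 (adjusted p = 0.0503) and with total library size (0.0886), and its day 40 call in 10 of 19 alternatives (up to 0.240, with total library size). The day 19 call of KIF2C was lost without day 19 replicate 1 or 2 (adjusted p = 0.0740 and 0.0505), with an offset for gene length (0.0707) and with total library size (0.172). KIF11 (Eg5), which pushes the spindle poles apart, had 220.0 ± 9.42, 203 ± 4.96 and 204 ± 6.42 CPM in day 0, day 19 and day 40 libraries and did not pass the test (-0.12 and -0.11, adjusted p = 0.113 and 0.153). NUSAP1, a microtubule bundler near chromosomes, had nearly level means of 245 ± 4.31, 244 ± 9.42 and 235 ± 5.94 CPM in the same order (0.997-fold at day 19 and 0.959-fold at day 40, adjusted p = 0.952 and 0.411).

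ASPM, which focuses microtubules at the spindle poles, went the other way. It had 139.5, 86.8 and 116 CPM in culture, 132, 146 and 136 CPM at day 19, and 148, 149.8 and 147 CPM at day 40. Only the day 40 libraries lay wholly above culture, and culture replicate 2 was the lowest library. The log2 fold change was 0.27 at day 19 (adjusted p = 0.0836) and 0.38 at day 40 (SE 0.13, adjusted p = 0.0255), and without culture replicate 2 it was 0.11 and 0.21 (adjusted p = 0.272 and 0.0438). The day 40 call of ASPM was lost without culture replicate 3 or any 1 of the day 40 libraries (adjusted p up to 0.0651), and without culture replicate 1 the day 19 rise of ASPM passed.

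Of the 5 cytokinesis genes 1 was lower and 1 higher at day 19, and at day 40 only the higher one was called. These shares of 20% were below those of all genes, 26.5% lower and 26.3% higher at day 19 and 23.3% higher at day 40. PRC1, which bundles the microtubules of the spindle midzone (chr15:90966038-90995629), had 99.7, 98.2 and 104 CPM in culture, 119.8, 128 and 129.6 CPM at day 19, and 138, 122 and 127 CPM at day 40. Every femur library was above every culture library, with log2 fold changes of 0.32 and 0.36 (SE 0.06 each, adjusted p = 0.00119 and 7.55e-04). ECT2, the exchange factor that turns on RhoA at the division plane, had 76.4 ± 0.903 CPM in culture, 69.2 ± 0.620 CPM at day 19 and 72.9 ± 1.38 CPM at day 40. Its fall at day 19 was the smallest that was called (-0.14, adjusted p = 0.0460), and it was lost in 17 of 19 alternatives (adjusted p up to 0.475), the block on sampling period among them (0.0602).

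The other cytokinesis genes did not pass the test. KIF20A, a midzone kinesin, had 66.0 ± 3.79 CPM in culture, 61.7 ± 4.41 CPM at day 19 and 63.2 ± 3.16 CPM at day 40 (-0.10 and -0.06), and it shares exonic bases with BRD8 and CDC23 on the opposite strand. KIF23, the motor of the centralspindlin complex at the midzone, had 74.2 ± 2.93, 72.2 ± 3.06 and 75.9 ± 1.89 CPM in day 0, day 19 and day 40 libraries (-0.04 and 0.03). ANLN (anillin), the scaffold of the contractile ring, had 89.8 ± 1.25, 97.6 ± 5.46 and 99.9 ± 6.42 CPM in the same order (0.12 and 0.15, adjusted p = 0.150 and 0.0763), with all femur libraries above culture.

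The 2 most abundant genes of the 41 by CPM were those of chromosome structure. TOP2A, the topoisomerase that untangles sister DNA, had 666, 542 and 635 CPM in culture, 482, 505 and 525 CPM at day 19, and 499, 533 and 549.6 CPM at day 40. The day 19 libraries lay below culture and the day 40 libraries overlapped it, and the log2 fold changes were -0.29 and -0.22 (SE 0.08 each, adjusted p = 0.0110 and 0.0430). The day 40 call of TOP2A was lost in 11 of 19 alternatives and its day 19 call without day 19 replicate 1 and with total library size (adjusted p = 0.0501 and 0.0890). MKI67 (Ki-67), the coat protein of mitotic chromosomes and a common marker of proliferation, had 808, 540.2 and 864 CPM in culture, 805, 899 and 882 CPM at day 19, and 905, 844 and 893 CPM at day 40. Culture replicates 1 and 3 lay among the femur values and culture replicate 2 far below them. MKI67 did not pass the test (0.23 and 0.26, adjusted p = 0.179 and 0.139), and without culture replicate 2 its log2 fold changes were 0.04 and 0.06 (adjusted p = 0.659 and 0.453). Without culture replicate 3 the day 40 rise of MKI67 passed (0.37, adjusted p = 0.0416).

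MKI67, CENPF and ASPM are the longest of the 41 genes and were those in which culture replicate 2 was furthest below the other cultures, by 0.63, 0.54 and 0.55 on the log2 scale. Across the 41 genes, the difference of culture replicate 2 from the mean of the other cultures had a Pearson correlation with log2 exonic length of -0.68 and a Spearman correlation of -0.69. Over 15121 tested genes with a length these were 0.01 and -0.12. The log2 fold change against culture also followed length among the 41 genes, with Pearson and Spearman correlations of 0.31 and 0.37 at day 19 and 0.41 and 0.44 at day 40, against values between -0.03 and 0.04 over all genes. Above 2 kb all genes tested followed length too, with day 19 medians of -0.07 (2 to 4 kb), 0.015 (4 to 8 kb) and 0.09 (over 8 kb). Their day 40 medians rose in the same order, and their culture replicate 2 differences fell, from 0.11 to 0.03 and -0.08. Genes up to 2 kb broke this order, with medians of 0.098 at day 19 and 0.06 at day 40. So a relation to length above 2 kb was not particular to the 41 genes. These are descriptions across genes that share the same libraries, and genes are not replicates.

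By length, all 3 genes up to 2 kb were lower at both days, 12 of 19 from 2 to 4 kb were lower at day 19 and 11 at day 40, and 6 of 15 from 4 to 8 kb were lower at day 19 and 5 at day 40. Of the 4 genes over 8 kb only CENPE was lower at both days. The genes called higher at day 19 were all from 4 to 8 kb long. Without culture replicate 2 there were 24 genes lower and 3 higher at each day. In the same fit 25.2% of all genes were lower and 23.9% higher at day 19, and 21.9% and 20.9% at day 40. At day 19 BUB1, CENPF and KIF11 were then called lower and CENPA was not, and at day 40 GTSE1, BUB1, CENPF and KIF11 were added and FOXM1 was lost. With an offset for gene length in the fit, 19 genes were lower and 5 higher at day 19, and 17 lower and 4 higher at day 40. With that offset 26% of all genes were lower and 26.4% higher at day 19, and 22.5% and 23.1% at day 40.

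**Figure D3:**
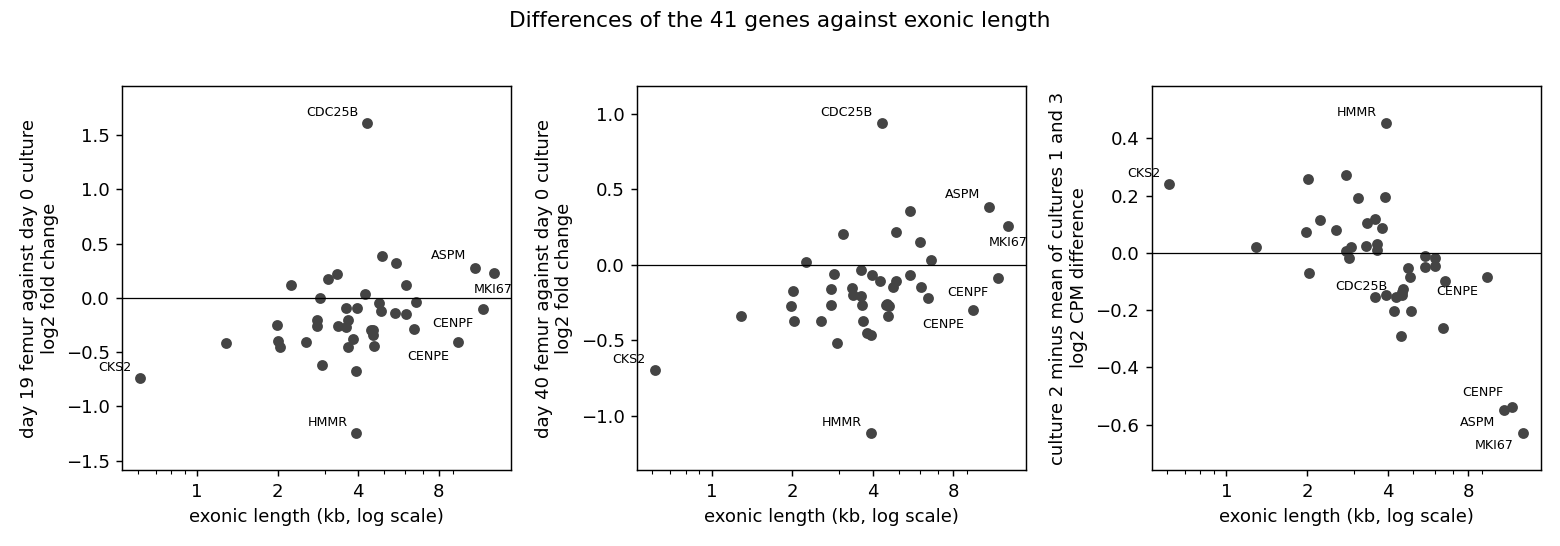
Each point is 1 of the 41 genes, plotted by exonic length in kb (log scale) against its log2 fold change at day 19 (left) or day 40 (middle) relative to culture, or against the log2 CPM difference of culture replicate 2 from the mean of culture replicates 1 and 3 (right). MKI67, ASPM and CENPF, at the long end, lie lowest in the right panel, at -0.63 to -0.54, and CKS2 is the shortest gene.

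The comparison of day 40 with day 19 asked whether the cells changed further with time in the femur. Of the 41 genes 1 was lower at day 40 and 0 were higher by edgeR, with 2 lower and 3 higher at an unadjusted p under 0.05 and 2 lower and 0 higher by DESeq2, and over all genes tested 1.45% were lower and 3.23% higher. The median log2 fold change was 0.04, against 0.00 over all genes. The gene that fell was CDC25B, with 157 ± 32.4 CPM at day 40 and 250.1 ± 48.2 CPM at day 19 (SD, n = 3 each), a log2 fold change of -0.67 (SE 0.15, adjusted p = 0.0244). This call was lost when day 40 replicate 1 (-0.51, adjusted p = 0.0764), day 19 replicate 2 (-0.65, adjusted p = 0.102) or day 19 replicate 3 (-0.54, adjusted p = 0.125) was left out.

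CDK1, lower than culture at both femur days, had 160.0, 149 and 154 CPM at day 40 and 139, 136 and 125 CPM at day 19, and the difference did not pass the test (0.21, adjusted p = 0.165). The day 40 libraries lay wholly above those of day 19 for 6 of the 41 genes and wholly below for 3, against 14% and 12.6% of all genes tested. Dates in the titles place the libraries 11, 26 and 39 days (day 40 group) and 18, 19 and 19 days (day 19 group) past each period's culture date. The titles do not say which step the dates record. The median log2 difference of the 41 genes from the culture of the same period was -0.27, -0.16 and -0.17 at day 19, and -0.23, -0.09 and -0.20 at day 40.

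**Figure D4:**
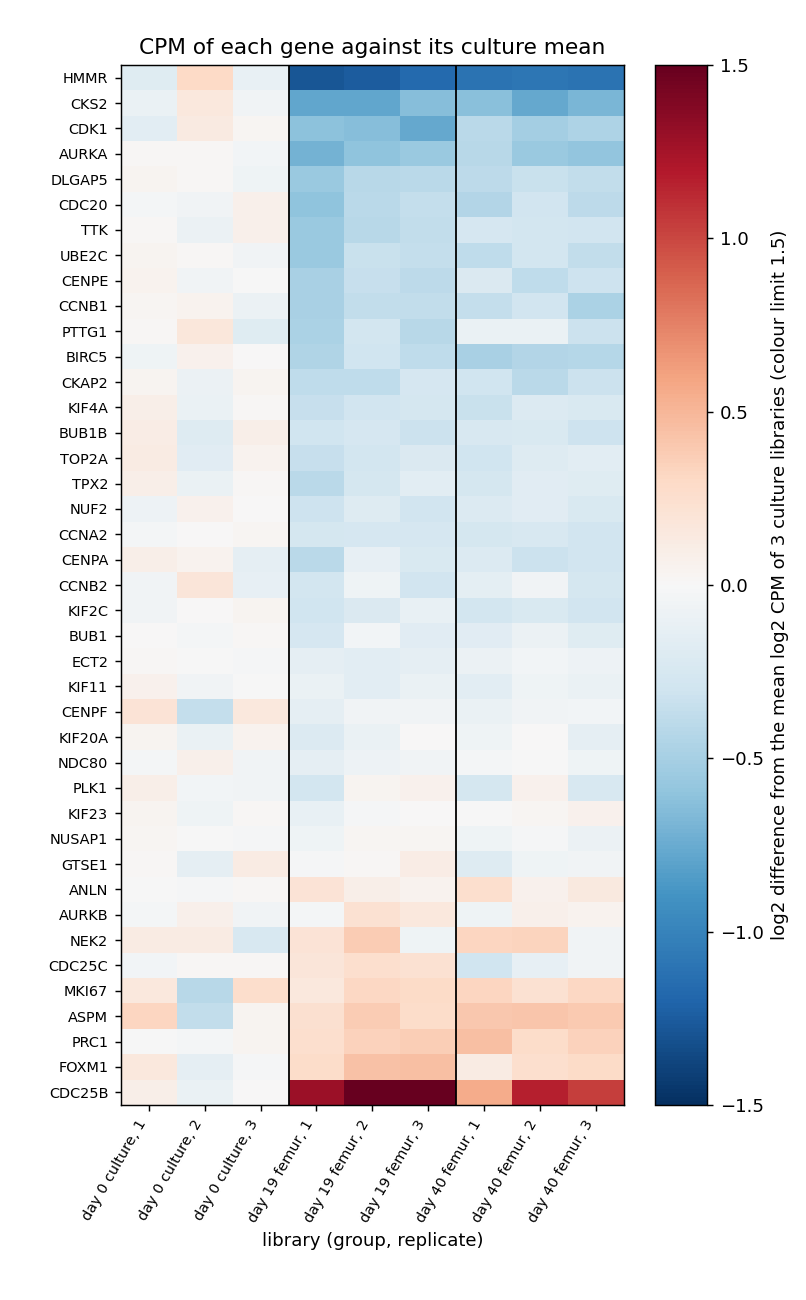
Log2 CPM of each of the 41 genes (rows, ordered by the day 19 log2 fold change) in each library (columns), relative to the mean of the 3 culture libraries, with blue for lower and red for higher and the colours limited at 1.5. The upper rows are blue in all 6 femur columns, CDC25B in the last row is red in all 6, and culture replicate 2 shows blue for MKI67, ASPM and CENPF.

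The 41 genes did not rise and fall together as 1 block over the 9 libraries. The correlation of a gene's log2 CPM with the mean of the other 40 was highest for UBE2C (0.97), CDC20 (0.96) and DLGAP5 (0.95), and it was lowest for ANLN (-0.87), PRC1 (-0.83) and CDC25B (-0.78). FOXM1 (-0.59), ASPM (-0.52), MKI67 (-0.42) and NEK2 (-0.41) were also negative. All these correlations include culture replicate 2, which differed from the other cultures by -0.55 for ASPM and -0.63 for MKI67 (log2). They were not computed without it. These values mix the difference between culture and femur with the spread inside groups and share the same libraries, so they are given as a description only.

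Other genes of mitosis, listed by function and excluding the 41, were called lower and higher in shares near or below those of all genes tested. Of 129 such genes 128 were tested, and 30 (23.4%) were lower and 34 (26.6%) higher at day 19, against 26.5% and 26.3% of all genes, with a median of -0.01. At day 40 there were 24 lower (18.8%) and 25 higher (19.5%), against 23.3% and 23.3% of all genes, with a median of -0.03. PIMREG, which takes part in the metaphase to anaphase step, is the gene that was not tested, and it is listed at 0 counts in all libraries. The difference between the 41 genes and these lists was not tested, since the lists were chosen with results of these data known.

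The genes named from these lists passed the test at day 19, and values in parentheses are their log2 fold changes at day 19 against culture. Among other APC/C subunits and regulators 5 of 17 were lower (29.4%) and 4 higher (23.5%) at day 19, against 26.5% and 26.3% of all genes. UBE2S, which extends ubiquitin chains after UBE2C, fell like it (209 ± 15.3 CPM at day 19 and 319.6 ± 28.1 CPM in culture, log2 fold change -0.61), and so did the subunit ANAPC13 (-0.52), while the subunit ANAPC2 (0.54) and FZR1 (CDH1), the activator of late mitosis and G1 (0.50), rose. In the spindle checkpoint list 2 of 9 were lower, MAD2L1 (MAD2), which binds CDC20 (-0.49), and ZWILCH (-0.31), and 2 were higher, KNTC1 (ROD), a partner of ZWILCH (0.67), and MAD1L1 (MAD1), the anchor of MAD2 (0.67). In the checkpoint list 22.2% were lower and 22.2% higher. Both lists held genes of 1 complex called in opposite directions, at shares near those of all genes. The passenger and shugoshin list had 3 of 5 lower (60%, against 26.5% of all genes), and the other 2 were not called. The lower genes were led by SGO2, a protector of centromeric cohesin (-0.52), and CDCA8 (borealin), a partner of BIRC5 (-0.24).

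Of 13 cohesin genes 1 was lower, WAPL, which releases cohesin from DNA (89.3 ± 6.89 CPM at day 19 and 165 ± 7.68 CPM in culture, -0.88), and 4 (30.8%) were higher, led by the loader MAU2 (0.53) and the protease ESPL1 (separase, 0.54), and at day 40 there were 1 lower and 3 (23.1%) higher. Of 8 condensin genes 4 (50%) were called at day 19, all higher, led by the condensin II subunits NCAPH2 (0.34) and NCAPD3 (0.31), and 1 (12.5%) was higher at day 40. The shares of all genes called higher were 26.3% and 23.3% at the same days, and 26.5% and 23.3% were called lower. Among 28 further centromere and kinetochore genes 7 were lower (25%) and 4 higher (14.3%) at day 19, against 26.5% and 26.3% of all genes. SPC25, of the same complex as NUF2 and NDC80 (-0.41), and CENPH (-0.43) were lower, and CENPT (0.70) and ZWINT (0.24) were higher. Among 22 other spindle and cytokinesis genes 3 were lower (13.6%) and 8 higher (36.4%), against the same shares of all genes. The lower genes were led by KIF18A (-0.31) and KIF20B (-0.24). The higher genes were led by KIF14, a cytokinesis motor that binds PRC1 (79.1 ± 5.96 CPM at day 19 and 39.6 ± 2.90 CPM in culture, 0.998), and NUMA1, which anchors spindle poles (0.93).

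Of 14 tested kinases and phosphatases of the G2 to M switch 5 were lower (35.7%) and 4 higher (28.6%), against 26.5% and 26.3% of all genes. ENSA, an inhibitor of the phosphatase that opposes CDK1 (-0.72), and CDCA2, a phosphatase targeting subunit (-0.44), fell, while PKMYT1, which inhibits CDK1 (0.36), and PLK4, the kinase of centriole copying (0.33), rose. In the list of MuvB, DREAM and MYBL2 genes 4 of 12 were lower and 4 higher (33.3% each), against the same shares of all genes. E2F5, of the repressive DREAM complex, had 38.5 ± 1.96 CPM at day 19 and 76.8 ± 12.3 CPM in culture (-0.996), and TFDP1, an E2F partner, also fell (-0.49). TFDP2, another E2F partner (0.94), and MYBL2, the activator that works with MuvB (0.29), rose at day 19, and MYBL2 did not pass the test at day 40 (0.05, adjusted p = 0.632).

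The G1/S and replication genes, which are expressed earlier in the cycle, had 8 lower (22.9%) and 15 higher (42.9%) of 35 at day 19, against 26.5% and 26.3% of all genes. At day 40 they had 7 lower (20%) and 9 higher (25.7%), against 23.3% and 23.3% of all genes. PRIM1, a primase subunit (-0.54), was among the lower genes at day 19, and UHRF1 (0.98), which helps copy DNA methylation, and LIG1 (0.63), the replicative ligase, were the higher genes with the smallest p. Between the femur days 5 of these 35 genes were called, all lower at day 40. UHRF1 had log2 fold changes of 0.55 at day 40 against culture and -0.43 at day 40 against day 19.

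**Figure D5:**
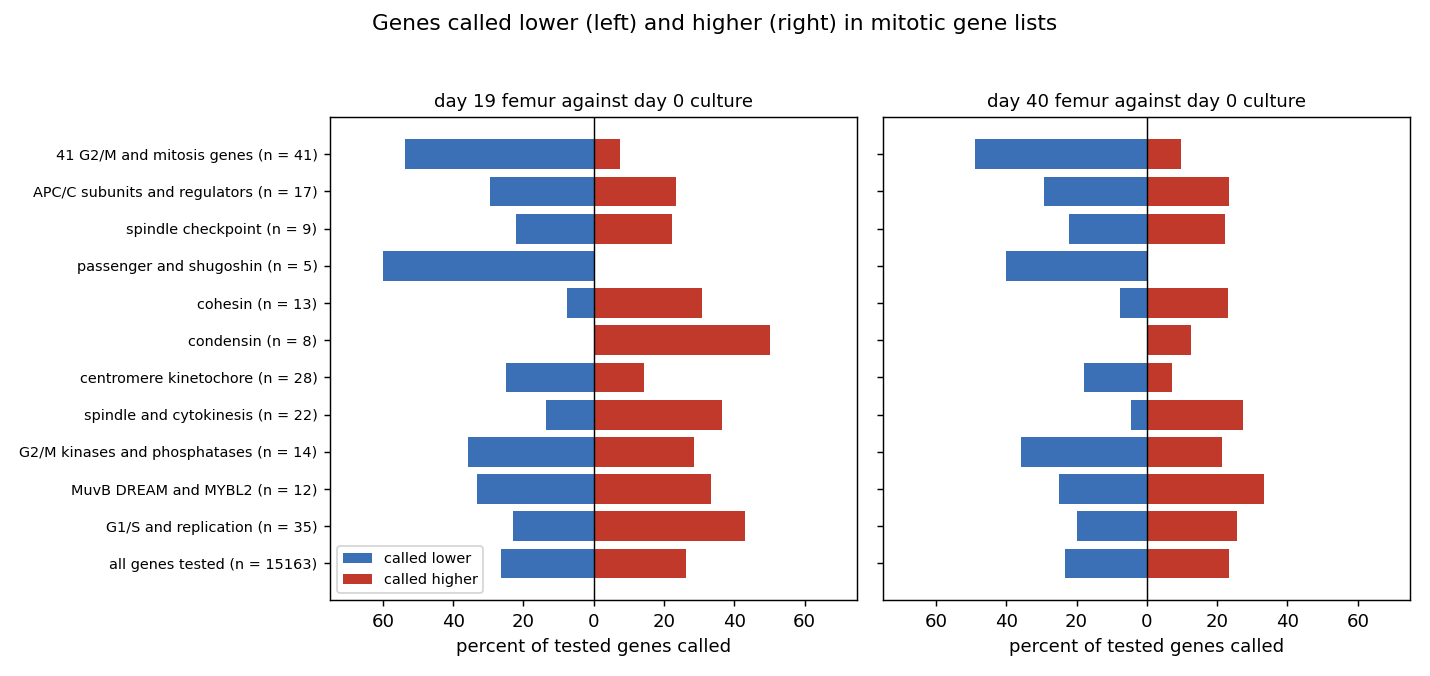
Percent of tested genes called lower (blue, to the left) and higher (red, to the right) against day 0 culture at day 19 (left panel) and day 40 (right panel) for the 41 genes, 9 further lists of mitotic genes, the G1/S list and all genes tested, with the number tested in each label. The 41 genes have 53.7% lower and 7.32% higher at day 19, against 26.5% and 26.3% of all genes, and condensin has 4 of 8 genes higher at day 19 and 1 at day 40.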

How the data were processed

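The 9 bulk RNA-seq libraries held cultured DOHH2 cells (day 0) or CD20-positive human cells sorted from femurs at day 19 or day 40, 3 of each. The deposited files give unnormalized read counts per Ensembl gene in whole numbers. FastQC 0.11.5, alignment to hg38 with STAR 2.5.2a, featureCounts 1.4.6 and DESeq2 1.40.1 are named in the submitters' processing notes. The sources used here do not give the strand setting, the annotation or the treatment of multi-mapping and mouse reads.

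GENCODE 29 named 57980 of 58243 identifiers. Counts with no symbol were 0.0188% of all. In R 4.3.3 with edgeR 4.0.16, genes were filtered with filterByExpr, scaled by TMM and tested two-sided by the quasi-likelihood F-test over all 9 libraries with a coefficient per group. A gene was called at a Benjamini-Hochberg adjusted p, taken over the 15163 genes tested, under 0.05. The contrasts set each femur day, and their mean, against culture, and day 40 against day 19. SE is that of the log2 fold change. CPM uses TMM-scaled library sizes, and levels between genes were compared per kb of exon. Alternatives included limma 3.58.1 and DESeq2 1.42.0. The procedure was tested on simulated data. Depth limits precision through counting error, and all 41 genes were well counted.

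The 41 genes and all lists were chosen with earlier results of these data known, so no list was tested as a set. All 41 are given. Of the other lists, the rule named up to 2 called genes in each direction with the smallest p at day 19, and copies with at least 1 CPM. A gene that the rule named and a marker are not reported here. Promoters were printed for 3 genes with the most negative and 2 with the most positive change. Overlap partners and E2F5, MYBL2 and UHRF1 at day 40 are given beside these. Groups came from the day in the titles. Replicate numbers were given in accession order. The labels name no cultures or animals, so the spread behind the p-values is that between these samples and may be technical. No 2 libraries of a group agreed within sampling noise (chi-square per degree of freedom at least 5.08). Within groups this value was largest for culture replicate 2, at 27.5 against culture replicate 1 and 31.98 against culture replicate 3. Culture replicates 1 and 3 were closer to each other. Culture replicate 2 also had the lowest TMM factor (0.914).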

Additional observations from a re-analysis of the deposited data

Results flagged for a closer look

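CDC25B is the gene whose difference from culture itself differed between the femur days. Its log2 fold change against culture was 1.61 at day 19 and 0.94 at day 40, and the test between the days gave -0.67 (SE 0.15, adjusted p = 0.0244 by edgeR's quasi-likelihood test). All 3 day 40 libraries lay below all 3 day 19 libraries, as for 12.6% of all genes tested. The call was lost without day 40 replicate 1, day 19 replicate 2 or day 19 replicate 3 (adjusted p up to 0.125 by the same test).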

How the results depend on the processing

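In 19 alternatives no gene that was called changed direction. At day 19 the calls of 16 of 22 lower and 3 of 3 higher genes held in every one, as did 13 of 20 lower and 2 of 4 higher genes at day 40. The falls of ECT2, CENPA, KIF2C, TPX2, TOP2A and BUB1B at day 19 did not hold in every one, nor did those of BUB1B, TTK, CENPA, NUF2, KIF4A, TPX2 and TOP2A or the rises of FOXM1 and ASPM at day 40. Leaving out 1 library gave 17 to 24 lower and 3 to 4 higher genes at day 19, and 15 to 24 lower and 2 to 4 higher at day 40. The 17 came without day 19 replicate 1 and the 2 without day 40 replicate 2 or 3. Over these fits 22.1% to 26.9% of all genes were lower and 21.9% to 25.7% higher at day 19. At day 40 these shares were 18.6% to 22.9% and 18.5% to 22%.

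With total library size there were 7 higher genes and a median of -0.12 at day 19, 13 lower genes and a median of -0.087 at day 40, and a median of -0.15 for the mean of both femur days against culture, which was -0.23 with TMM. Without a filter on low counts 5 genes were higher at day 19, beside 13.5% of all genes in that fit. A gene length offset gave 5 higher at day 19 and a median of -0.16 for the mean of both days. With only the groups compared in the fit, 2 genes were higher at day 40 against culture, and 1 (CDK1) at day 40 against day 19. The shares of all genes called higher were then 20.2% and 4.58%. DESeq2 called 2 lower at day 40 against day 19 (CDC25B and CDC25C), and leaving out 1 library gave 0 to 2. The median at day 40 against culture was -0.17 to -0.23 over the libraries left out. The causes were not tested.

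The replicate numbers follow sampling periods. Same-period libraries correlated at -0.05 to 0.31 in their deviations from group means, with 6 of 9 pairs over 0.1, and libraries of other periods at -0.20 to 0.087. Since 3 same-period pairs were not over 0.1, and 5 of 9 libraries correlated best with their own period, the numbers were not taken to pair the libraries, which does not show that the periods share nothing. A replicate block gave 22 lower and 3 higher genes at day 19 (CCNB2 added, ECT2 lost), 20 and 3 at day 40 (FOXM1 lost), 1 and 0 at day 40 against day 19, and 23 and 5 for the mean of both days. With that block 27.3% of all genes were lower and 27.5% higher at day 19, and 24.2% and 24.4% at day 40. The block with a length offset gave 6 higher and a median of -0.15 at day 19, and 7 higher and a median of -0.16 for the mean of both days.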
